A study of Mus musculus with 8 samples.

Results

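The genes described here are those of sterol and fatty acid synthesis, with their regulators and the targets of the liver X receptors, measured in cultured mouse T cells. They form a list of 38 symbols drawn up by pathway, with earlier results of these data known. Of these, 36 had a probe set naming that gene alone, 81 probe sets in all, among 18193 genes with 34945 such probe sets. Acat2 and Soat1 were dropped because they had none. Affymetrix GeneChip Mouse Genome 430 2.0 arrays gave the expression of naive CD4 T cells of C57BL/6 mice, sorted by flow cytometry and grown for 48 h on antibodies to CD3 and CD28 in a Th17 culture. There were 4 groups of 2 arrays: wildtype cells with DMSO, wildtype cells with digoxin, RORγt-deficient cells with DMSO and RORγt-deficient cells with digoxin. Digoxin, a cardiac glycoside, blocks the sodium pump, and DMSO served as its control. Each array is titled as a biological replicate. The dose, the allele behind the deficiency and the animals or cultures behind each array are not given in the sources used here, so a p-value measures only the spread between these arrays.

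Cholesterol is built from acetyl-CoA through mevalonate, isoprenoids and squalene. The SREBP transcription factors drive the genes of this route and of fatty acid synthesis: when membranes hold little sterol, SCAP carries the SREBP precursors out of the endoplasmic reticulum for cleavage, and when sterol is plentiful the INSIG proteins hold them back. The liver X receptors respond to oxysterols and raise genes of sterol export. Intermediates of sterol synthesis are known ligands of RORγt, a nuclear receptor needed for the Th17 fate, and dividing T cells need new membrane lipid, which is why these genes are of interest in this culture.

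Promoter windows of RefSeq (GRCm38.p6) ran from 250 bases before to 50 bases after a gene's start, and 28 of the 36 genes had at least 1 window. The letters CCAAT, the box bound by NF-Y, stood in a window of 24 of the 28 genes (85.7%), against 41.1% of all 27025 genes with a window. The GC box GGGCGG was in 23 of the 28 (82.1%), against 38.2% of all genes. TCACNCCAC, a form of the sterol regulatory element, was found in 1 of the 28, Hmgcs1, against 1.44% of all genes. TAGGTCA, the core of the element that ROR receptors bind, was in windows of 1 of the 28, Dhcr7, against 2.97% of all genes. All motifs were searched on both strands, and a match is a description of letters, not of a site in use. A gene counted if any of its windows matched. Of the 36 windows of these 28 genes, 25 held CCAAT and 27 held GGGCGG, against 37.4% and 35.7% of all windows. The background of all genes was not matched for expression or base composition. The stretches below show the 250 bases before the start of Hmgcs1, which held the sterol regulatory element letters, and of Insig1, which varied most between arrays. Capitals mark the sterol regulatory element (TCACCCCAC) and the CCAAT box, read here as ATTGG on the opposite strand. Hmgcs1 lies at chr13:119690101-119690350 and Insig1 at chr5:28071162-28071411, both on the plus strand.
Hmgcs1: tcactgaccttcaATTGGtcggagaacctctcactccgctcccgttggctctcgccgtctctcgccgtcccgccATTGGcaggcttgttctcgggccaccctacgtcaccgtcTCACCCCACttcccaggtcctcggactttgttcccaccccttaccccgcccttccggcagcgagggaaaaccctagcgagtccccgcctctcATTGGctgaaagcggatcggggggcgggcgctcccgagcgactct
Insig1: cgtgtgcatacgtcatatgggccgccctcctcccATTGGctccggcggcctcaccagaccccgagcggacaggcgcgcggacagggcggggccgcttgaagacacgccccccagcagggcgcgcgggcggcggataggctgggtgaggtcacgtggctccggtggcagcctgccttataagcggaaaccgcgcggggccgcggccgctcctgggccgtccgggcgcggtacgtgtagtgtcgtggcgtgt

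All values are log2 expression relative to the mean of the wildtype DMSO arrays, which therefore lie at equal distances above and below 0 for every gene, and no absolute level is left. Precision is limited by how few arrays there were. The 4 measured markers of CD4 T cells (Cd4, Cd3e, Cd3g and Cd28) each had a lowest array level of at least 8 on the original log2 scale. Levels were recovered from the precision of the deposited numbers and are those of the 1 probe set tested for a gene. Of the 15 measured markers of CD8 T, NK, B, myeloid, gamma delta T and erythroid cells, 0 reached that level. The mean of the 4 CD4 T cell markers was -0.06 to 0.06 on the wildtype DMSO arrays, 0.20 to 0.21 with digoxin, 0.27 to 0.33 in deficiency and 0.29 to 0.34 in deficiency with digoxin. Markers of other cell types also stood higher on some arrays, in the same order of groups: the 3 of B cells at -0.14 to 0.14, 0.10 to 0.37, 0.06 to 0.17 and 0.26 to 0.34, and the 5 of myeloid cells at -0.02 to 0.02, 0.07 to 0.21, -0.05 to 0.03 and 0.05 to 0.31. The 2 markers of CD8 T cells stood at -0.03 to 0.03, 0.05 to 0.07, 0.21 to 0.24 and 0.07 to 0.21, and the 2 of NK cells at -0.04 to 0.04, 0.10 to 0.40, 0.06 to 0.18 and 0.11 to 0.15. The erythroid pair stood at -0.10 to 0.10, -0.17 to 0.28, 0.03 to 0.17 and 0.13 to 0.22, and Sox13, the 1 gamma delta T cell marker, at -0.18 to 0.18, 0.01 to 0.33, 0.02 to 0.11 and 0.05 to 0.19. The part of these shifts in the values below was not tested. In such bulk samples fewer cells of a type and less RNA per cell cannot be told apart. Il17a, which encodes the cytokine that defines Th17 cells, stood at -2.35 and -2.44 in wildtype cells with digoxin, at -2.01 and -2.21 in RORγt-deficient cells with DMSO and at -3.87 and -4.12 in deficient cells with digoxin. It was called by limma for deficiency and for digoxin, each alone and on top of the other (largest adjusted p = 0.00299). RORγt's own transcript was not analysed here. Array signal for 18S ribosomal RNA, read by 3 control probe sets, differed between the arrays of each group: the mean log2 signal was 0.72 and -0.72 in wildtype DMSO, -2.37 and 1.76 in digoxin-treated wildtype, -0.25 and 1.58 in deficient DMSO and -0.43 and 1.62 in deficient digoxin.

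None of the 36 genes was called for RORγt deficiency or for digoxin by limma with Benjamini-Hochberg adjustment over all 18193 genes. Deficiency in DMSO called 0 of the 36, against 1.05% of all genes, with a smallest adjusted p of 0.242 among the 36. Digoxin in wildtype cells called 0, against 0.121% of all genes (smallest adjusted p = 0.758), and digoxin in deficient cells called 0, against 0.0055% (adjusted p = 1). Deficiency under digoxin called 0, against 0.0055% (smallest adjusted p = 0.973), and the difference between the digoxin effects in the 2 genotypes called 0, against 0% (adjusted p = 1). At an unadjusted p under 0.05 by limma, the count was 1 of the 36 for deficiency in DMSO (10.3% of all genes), 0 for digoxin in wildtype cells (6.99%), 0 for digoxin in deficient cells (3.51%), 0 for deficiency under digoxin (5.51%) and 1 for the difference of effects (3.09%). That 1 gene was Fdft1 in both cases.

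The medians of the 36 log2 differences lay near 0. For deficiency in DMSO the median was 0.04, from -0.24 for Insig2 to 0.49 for Insig1, beside a median of 0.00 over all genes. For digoxin in wildtype cells it was 0.02, from -0.24 for Ch25h to 0.36 for Lss, beside 0.01 over all genes. In deficient cells digoxin gave a median of 0.02, from -0.40 for Insig1 to 0.21 for Lss, beside 0.02 over all genes. In these comparisons 0 of the 36 differences exceeded 0.5 in size, against 2.45%, 0.973% and 0.154% of all genes. For deficiency under digoxin it was also 0, against 0.813%, and for the difference of effects it was 1, Fdft1, against 1.31%. In 27 of the 36 genes the widest gap between the arrays of a group exceeded every difference between group means. That count sets single arrays against means of 2 arrays, and the share over all genes was not computed. The median pooled standard deviation within groups was 0.131 for the 36 genes and 0.126 for all genes.

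The intervals show how large a change these arrays leave room for. The 95% limma intervals, not adjusted for the number of genes, lay inside a 2-fold change (±1 on the log2 scale) for 35 of the 36 genes in deficiency, for 36 under digoxin in wildtype cells, for 35 under digoxin in deficient cells, for 36 in deficiency under digoxin and for 35 in the difference of effects. Insig1 was the exception in each of the 3 comparisons with 35. Over all genes 98.7%, 99.5%, 99.8%, 99.6% and 98.2% of intervals lay inside ±1, in the same order. Inside ±0.5 lay 29, 28, 28, 30 and 21 of the 36, against 73.4%, 76.3%, 82.0%, 79.6% and 41.6% of all genes. The median half-width was 0.29 for the first 4 comparisons and 0.40 for the difference of effects. These widths are not adjusted for the number of genes, and a p that missed the threshold does not show that a gene did not differ.

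**Figure D1:**
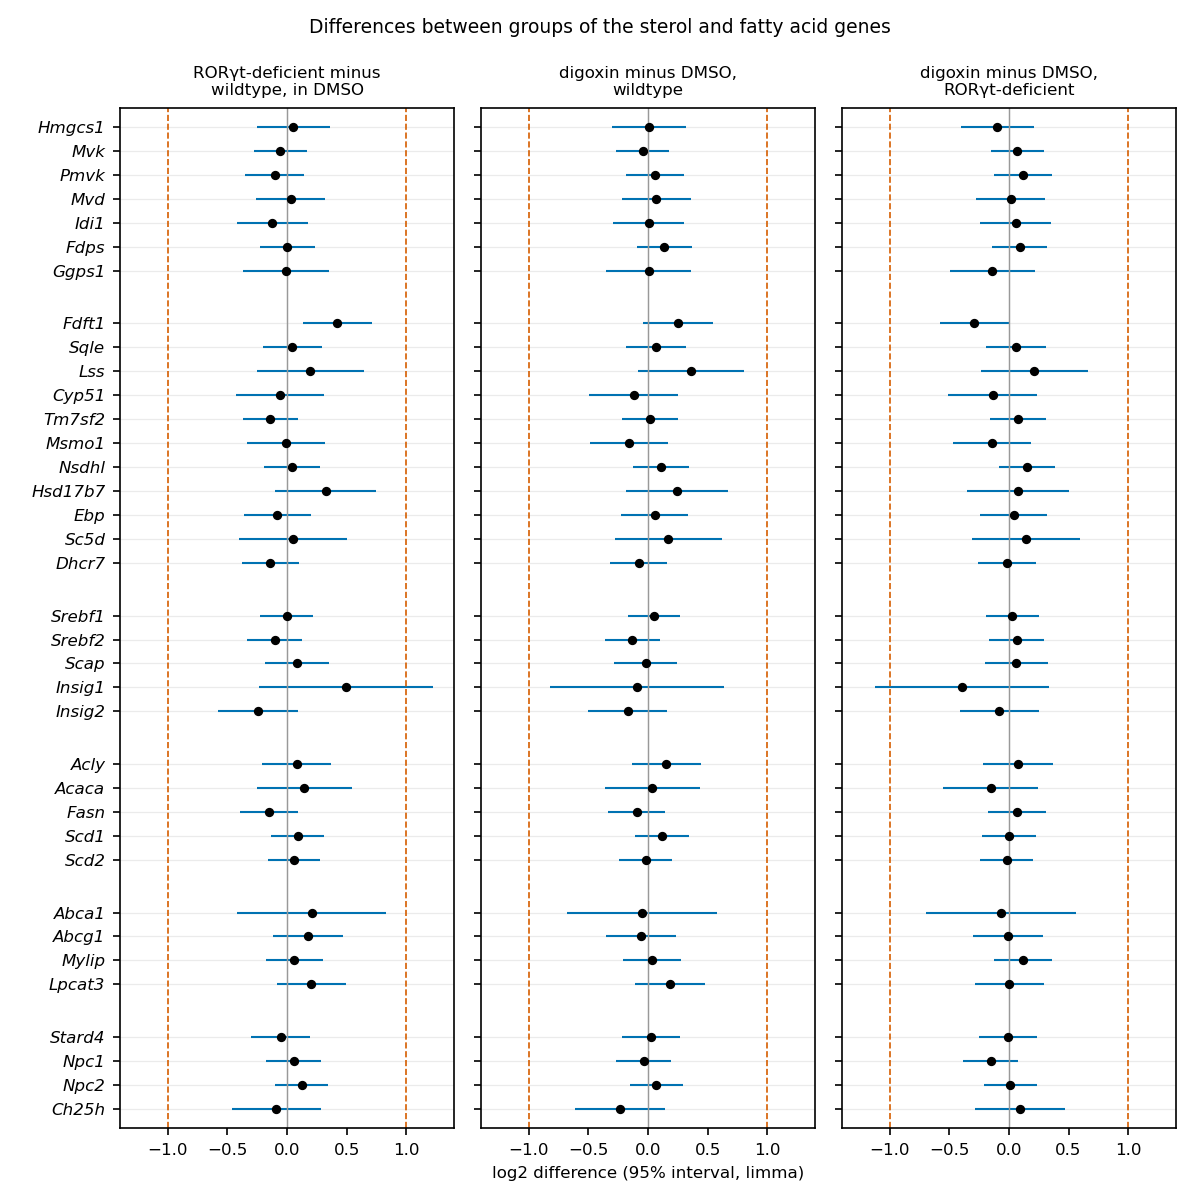
Log2 differences (points) of the 36 genes with 95% limma intervals (lines) for deficiency under DMSO (left), digoxin in the wildtype (middle) and digoxin in deficiency (right), n = 2 arrays per group; dashed lines mark a 2-fold change. Only the Insig1 interval crosses a dashed line, in the left and right panels, reaching 1.22 and -1.13.

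The enzymes of the mevalonate and isoprenoid steps carry acetyl-CoA to farnesyl and geranylgeranyl diphosphate. Of the 7 measured, 0 were called in any comparison, and their estimates ran from -0.13 to 0.05 in RORγt deficiency and from -0.04 to 0.13 under digoxin in wildtype cells. Hmgcs1, the cytosolic HMG-CoA synthase whose promoter letters are given above, stood at -0.08 and 0.08 in wildtype DMSO, 0.15 and -0.13 in digoxin-treated wildtype, 0.20 and -0.09 in deficient DMSO and -0.09 and 0.00 in deficient digoxin. The groups overlapped, and the difference was 0.05 ± 0.14 (SE, n = 2 arrays per group) for deficiency and 0.01 ± 0.14 for digoxin in wildtype cells. Both intervals, from -0.26 to 0.36 and from -0.30 to 0.32, lay inside ±0.5.

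Fdps, farnesyl diphosphate synthase, stood at -0.04 and 0.04 in wildtype DMSO, 0.16 and 0.11 in digoxin-treated wildtype, -0.05 and 0.05 in deficient DMSO and 0.13 and 0.05 in deficient digoxin. Both wildtype digoxin arrays lay above both wildtype DMSO arrays, but the difference of 0.13 ± 0.10 was not called (limma adjusted p = 0.834). Pmvk, phosphomevalonate kinase, stood at 0.05 and -0.05 in wildtype DMSO, 0.10 and 0.02 in digoxin-treated wildtype, -0.10 and -0.11 in deficient DMSO and 0.11 and -0.08 in deficient digoxin. The deficient DMSO arrays were the lowest, at -0.10 ± 0.11 against wildtype, which was not called (adjusted p = 0.801). Mvk, Mvd, Idi1 and Ggps1, the other kinase, the decarboxylase, the isomerase and the geranylgeranyl diphosphate synthase of this stretch, had estimates from -0.13 to 0.07 in the same 2 comparisons.

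From squalene to cholesterol 11 enzymes were measured. Fdft1, squalene synthase and the first committed enzyme of this branch, had the smallest unadjusted p of all 36 genes. It stood at 0.14 and -0.14 in wildtype DMSO, 0.31 and 0.19 in digoxin-treated wildtype, 0.31 and 0.53 in deficient DMSO and 0.17 and 0.10 in deficient digoxin. The arrays of wildtype digoxin and of deficient DMSO lay above both wildtype DMSO arrays, and those of deficient digoxin below both deficient DMSO arrays. The difference was 0.42 ± 0.13 for deficiency (limma adjusted p = 0.242) and 0.25 ± 0.13 for digoxin in wildtype cells (adjusted p = 0.758). Digoxin in deficient cells gave -0.29 ± 0.13 (adjusted p = 1), and the difference of the digoxin effects was -0.54 ± 0.18 (limma adjusted p = 1). The other 3 probe sets of Fdft1 gave -0.02, 0.12 and 0.14 for deficiency, so the value rested on 1 of 4 probe sets.

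Sqle, squalene epoxidase, a rate-limiting enzyme of the pathway, stood at -0.08 and 0.08 in wildtype DMSO, 0.15 and -0.01 in digoxin-treated wildtype, 0.10 and -0.01 in deficient DMSO and 0.13 and 0.08 in deficient digoxin. The groups overlapped in every comparison, with 0.04 ± 0.11 for deficiency and 0.07 ± 0.11 for digoxin in wildtype cells. Lss, lanosterol synthase, stood at 0.10 and -0.10 in wildtype DMSO, 0.22 and 0.50 in digoxin-treated wildtype, -0.06 and 0.44 in deficient DMSO and 0.16 and 0.65 in deficient digoxin. Both wildtype digoxin arrays lay above both wildtype DMSO arrays, and the difference of 0.36 ± 0.20 was not called (adjusted p = 0.765). Its other 2 probe sets gave 0.11 and 0.07 for the same comparison. The remaining 8 of these enzymes (Cyp51, Tm7sf2, Msmo1, Nsdhl, Hsd17b7, Ebp, Sc5d and Dhcr7) had estimates from -0.16 for Msmo1 to 0.24 for Hsd17b7 under digoxin in wildtype cells and from -0.14 to 0.32 in deficiency.

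**Figure D2:**
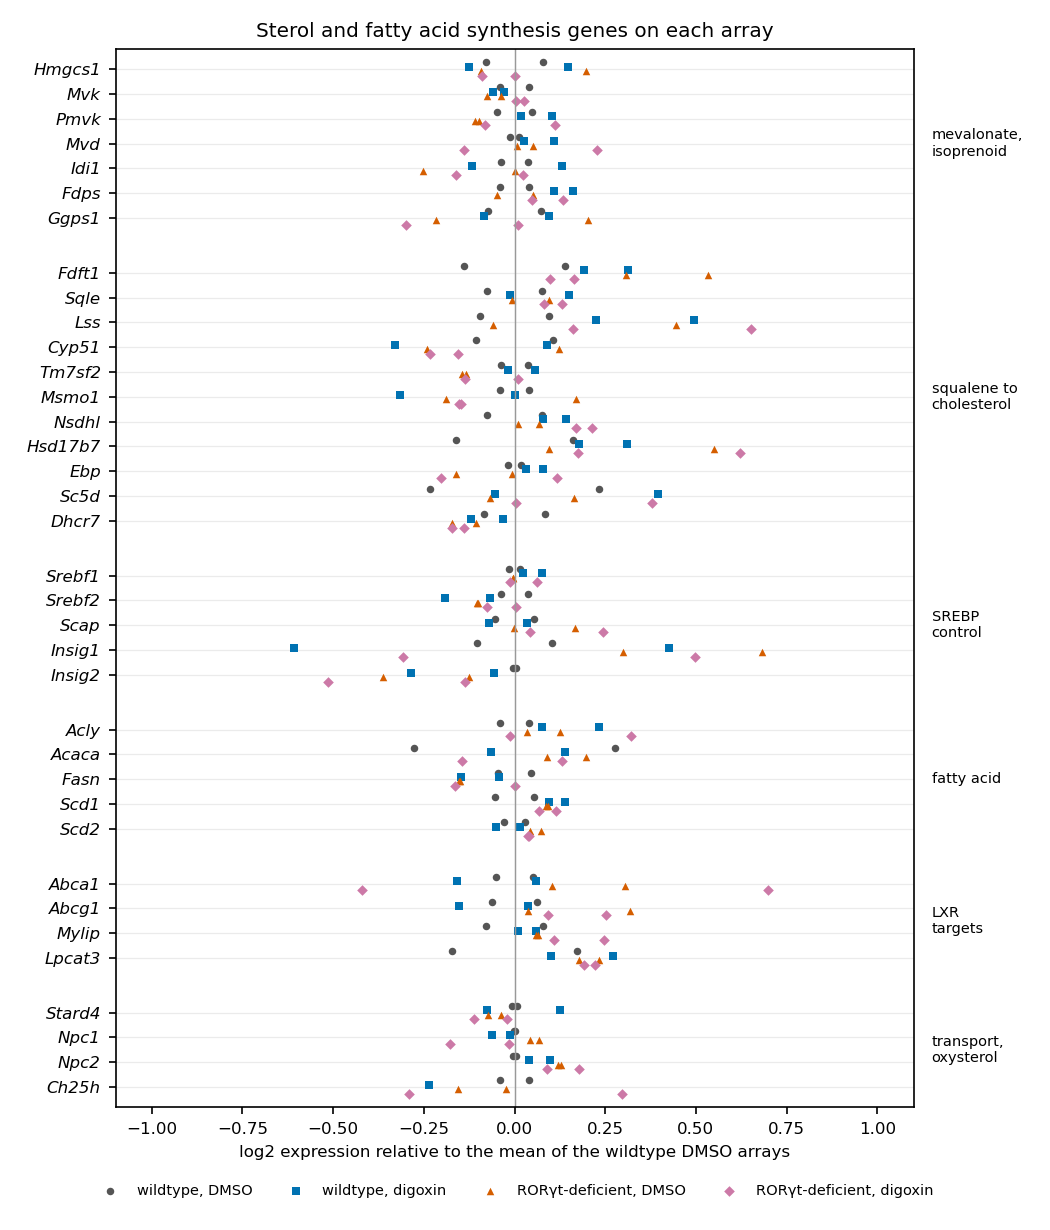
Log2 expression of the 36 genes on each of the 8 arrays, relative to the mean of the wildtype DMSO arrays; each symbol is 1 array and colours and shapes are the 4 groups. Insig1 and Abca1 have the widest spread within groups, up to 1.03 and 1.12 between arrays of a group.

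The regulators of SREBP comprised 5 measured genes. Srebf1, which encodes SREBP-1, varied little: it stood at 0.01 and -0.01 in wildtype DMSO, 0.02 and 0.08 in digoxin-treated wildtype, 0.00 and 0.00 in deficient DMSO and 0.06 and -0.01 in deficient digoxin. Srebf2, which encodes the form that favours sterol synthesis, stood at 0.04 and -0.04, -0.07 and -0.19, -0.10 and -0.10, and -0.08 and 0.00 in the same order. Its wildtype digoxin and deficient DMSO arrays lay below both wildtype DMSO arrays, at -0.13 ± 0.10 and -0.10 ± 0.10, and neither difference was called (adjusted p = 0.838 and 0.792). On its other probe set, 1452174_at, both groups overlapped wildtype DMSO, with estimates of -0.11 and -0.07. Scap, the escort of the SREBP precursors, had 0.08 for deficiency and -0.02 for digoxin in wildtype cells.

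Insig1 and Insig2 encode the proteins that retain SCAP, and Insig1 is itself a target of SREBP. Insig1 stood at 0.10 and -0.10 in wildtype DMSO, -0.61 and 0.43 in digoxin-treated wildtype, 0.30 and 0.68 in deficient DMSO and -0.31 and 0.50 in deficient digoxin. Its arrays differed by up to 1.03 within a group, which exceeded the largest difference between group means, 0.58. The difference was 0.49 ± 0.33 for deficiency and -0.40 ± 0.33 for digoxin in deficient cells, with intervals from -0.24 to 1.22 and from -1.13 to 0.33. Insig2 stood at 0.00 and 0.00 in wildtype DMSO, -0.06 and -0.28 in digoxin-treated wildtype, -0.13 and -0.36 in deficient DMSO and -0.14 and -0.51 in deficient digoxin. On this probe set both wildtype DMSO arrays were the highest, and neither deficiency (-0.24 ± 0.15, adjusted p = 0.637) nor digoxin in wildtype cells (-0.17 ± 0.15, adjusted p = 0.855) was called. On 1417982_at both groups overlapped wildtype DMSO (0.06 and -0.06), with digoxin-treated wildtype at 0.01 and -0.17 and deficient DMSO at -0.03 and -0.28. On 1417980_a_at only deficient DMSO did. Over the 3 probe sets deficiency gave -0.24 to -0.09 and digoxin in wildtype cells -0.17 to -0.08.

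In each group Insig1 was higher on the array with the higher 18S signal: 0.10 against -0.10, 0.43 against -0.61, 0.68 against 0.30 and 0.50 against -0.31. Of the 36 genes Insig1 varied most within groups, and the share of all genes with this pattern in every group was not computed. With the mean 18S signal of each array as a covariate, a fit chosen after the data were seen, the standard error of Insig1 for deficiency in DMSO was 0.12 in place of 0.33, its difference was 0.32 in place of 0.49, and it was not called (adjusted p = 0.29). Digoxin in deficient cells then gave -0.38 ± 0.12 (limma adjusted p = 0.71) and digoxin in wildtype cells -0.01. In each group most enzymes of the mevalonate and squalene steps lay the other way. On the array of each group with the higher 18S signal, 15 of 18 enzymes were lower in wildtype DMSO, 15 in digoxin-treated wildtype, 12 in deficient DMSO and 13 in deficient digoxin, where 46.8%, 47.2%, 46.6% and 52.9% of all genes were lower. Lss was an exception, as its tested probe set was higher on that array in every group. It stood at 0.10 against -0.10, 0.50 against 0.22, 0.44 against -0.06 and 0.65 against 0.16. With the covariate Lss had 0.40 ± 0.13 for digoxin in wildtype cells (limma adjusted p = 0.261). The medians of the 18 enzymes stayed between -0.08 and 0.12 on all 8 arrays. The part of the 18S signal in these values was not tested beyond the covariate fit, which called 0 of the 36 genes in all 5 comparisons.

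**Figure D3:**
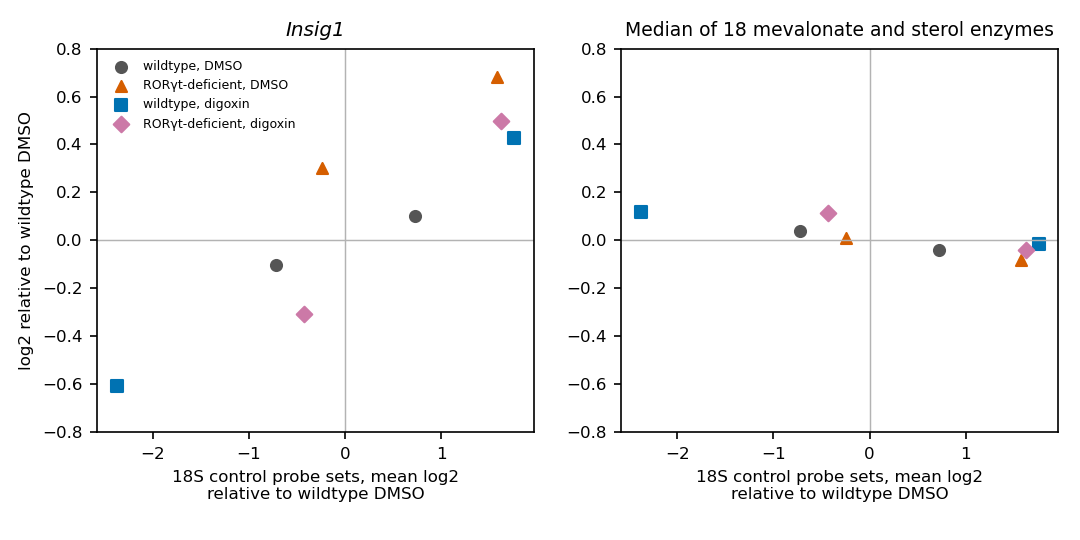
Log2 value of Insig1 (left) and the median of the 18 mevalonate and sterol enzymes (right) against the mean log2 signal of the 3 18S ribosomal RNA control probe sets, both relative to wildtype DMSO; each symbol is 1 of the 8 arrays, coloured by group. The lowest and the highest 18S signal (-2.37 and 1.76) are those of the wildtype digoxin arrays. Between them Insig1 goes from -0.61 to 0.43 and the enzyme median from 0.12 to -0.02. Insig1 is highest (0.68) and the enzyme median lowest (-0.08) on deficient DMSO array 2, at an 18S signal of 1.58.

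Fatty acid synthesis and desaturation comprised 5 measured genes, with 0 called. Fasn, the fatty acid synthase, stood at 0.05 and -0.05 in wildtype DMSO, -0.04 and -0.15 in digoxin-treated wildtype, -0.15 and -0.15 in deficient DMSO and 0.00 and -0.16 in deficient digoxin. Both deficient DMSO arrays lay below the wildtype ones, with a difference of -0.15 ± 0.11 (adjusted p = 0.693). Acly, ATP citrate lyase, which supplies cytosolic acetyl-CoA, stood at -0.04 and 0.04, 0.23 and 0.08, 0.13 and 0.03, and 0.32 and -0.01 in the same order. Its wildtype digoxin arrays lay above both wildtype DMSO arrays, by 0.15 ± 0.13 (adjusted p = 0.848). The 6 probe sets of Acly ran from -0.08 to 0.15 in this comparison, so the tested one gave the highest value. Acaca, acetyl-CoA carboxylase, differed by 0.14 for deficiency and 0.04 for digoxin in wildtype cells, with wildtype DMSO arrays at -0.28 and 0.28. Its other probe set, 1434185_at, gave -0.10 and 0.01 for the same comparisons.

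Scd1 and Scd2 encode stearoyl-CoA desaturases, which make monounsaturated fatty acids. Scd1 stood at -0.05 and 0.05 in wildtype DMSO, 0.14 and 0.10 in digoxin-treated wildtype, 0.09 and 0.09 in deficient DMSO and 0.12 and 0.07 in deficient digoxin. All 6 arrays with digoxin or without RORγt lay above both wildtype DMSO arrays, but by 0.12 ± 0.10 under digoxin and 0.09 ± 0.10 in deficiency, neither of them called (adjusted p = 0.851 and 0.821). Its other probe set, 1415965_at, stood at -0.06 and 0.06, 0.18 and -0.19, 0.18 and -0.30, and -0.01 and -0.25 in the same order. There the groups overlapped, with 0.00 ± 0.18 for digoxin in wildtype cells and -0.06 ± 0.18 for deficiency. Scd2 stood at -0.03 and 0.03, 0.01 and -0.05, 0.04 and 0.07, and 0.04 and 0.04 in the same order. Groups that did not overlap were common with 2 arrays each: for deficiency in DMSO they were higher in 8 of the 36 genes (20.1% of all genes) and lower in 7 (21.7%), where 41.8% of all genes had such groups. For digoxin in wildtype cells they were higher in 11 (19.6%) and lower in 4 (18.1%), where 37.7% of all genes had them. Digoxin in deficient cells gave 5 higher (17.8%) and 3 lower (10.6%), with 28.4% in all, and deficiency under digoxin 6 higher (17.4%) and 2 lower (13.6%), with 31.0% in all.

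The 4 measured targets of the liver X receptors all had positive estimates for deficiency in DMSO, from 0.06 to 0.20, and 0 were called. Among all 18193 genes 9364 had an estimate above 0 in that comparison. The 15 further genes of liver X receptor function and sterol transport described below are not a list of targets. They did not share that sign, with 5 estimates above and 10 below 0 and a median of -0.03. Abca1, the cholesterol exporter to lipid-poor particles, stood at 0.05 and -0.05 in wildtype DMSO, -0.16 and 0.06 in digoxin-treated wildtype, 0.31 and 0.10 in deficient DMSO and 0.70 and -0.42 in deficient digoxin. The 2 deficient digoxin arrays were the highest and the lowest of all 8, and the estimates were 0.20 ± 0.28 for deficiency and -0.05 ± 0.28 for digoxin in wildtype cells. Abcg1, which exports cholesterol to larger particles and is known to restrain T cell division, stood at 0.06 and -0.06, -0.15 and 0.04, 0.04 and 0.32, and 0.09 and 0.25 in the same order. Its difference was 0.18 ± 0.13 for deficiency (adjusted p = 0.702) and -0.06 ± 0.13 for digoxin in wildtype cells.

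Lpcat3, an enzyme that places polyunsaturated fatty acids into phospholipids, stood at -0.17 and 0.17 in wildtype DMSO, 0.27 and 0.10 in digoxin-treated wildtype, 0.23 and 0.18 in deficient DMSO and 0.22 and 0.19 in deficient digoxin. It differed by 0.20 ± 0.13 in deficiency and 0.19 ± 0.13 under digoxin in wildtype cells, neither called (adjusted p = 0.656 and 0.816). Mylip, the ubiquitin ligase that targets lipoprotein receptors, had 0.06 and 0.03. Under digoxin, deficiency gave estimates from 0.02 to 0.23 for the same 4 genes, again with 0 called, where 9532 of all 18193 genes were above 0.

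Among the genes of sterol transport and oxysterols, Ch25h, the cholesterol 25-hydroxylase, stood at 0.04 and -0.04 in wildtype DMSO, -0.24 and -0.24 in digoxin-treated wildtype, -0.16 and -0.02 in deficient DMSO and -0.29 and 0.30 in deficient digoxin. Both wildtype digoxin arrays lay below both wildtype DMSO arrays, with a difference of -0.24 ± 0.17 (adjusted p = 0.819). It was the only one of the 36 whose tested probe set had a lowest array level between 2 and 4 on the original log2 scale. The tested probe sets of 13 lay between 4 and 8 and those of 22 at 8 or above. Other probe sets of a gene could lie higher: for Fdft1 and Lss the tested one lay between 4 and 8 and another at 8 or above. Npc2, a lysosomal cholesterol carrier, stood at -0.01 and 0.01, 0.10 and 0.04, 0.12 and 0.13, and 0.18 and 0.09 in the usual order of groups. It differed by 0.12 ± 0.10 for deficiency and 0.07 ± 0.10 for digoxin in wildtype cells. Its partner Npc1 and the sterol carrier Stard4 had estimates from -0.06 to 0.06 in these comparisons.

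Probe sets of a gene did not always give the same value. When all 34945 probe sets were tested on their own, 0 of the 81 were called in any comparison, against 0.79% of all probe sets for deficiency in DMSO, 0.0687% for digoxin in wildtype cells, 0.00286% for digoxin in deficient cells, 0.00286% for deficiency under digoxin and 0% for the difference of effects. At an unadjusted p under 0.05 by limma, 6 of the 81 passed for deficiency in DMSO (9.9% of all probe sets) and 1 for digoxin in wildtype cells (6.66%). The count was 0 for digoxin in deficient cells (3.43%), 2 for deficiency under digoxin (4.93%) and 1 for the difference of effects (2.87%). Probe set 1455768_at of Npc2 stood at -0.02 and 0.02 in wildtype DMSO, 0.03 and -0.03 in digoxin-treated wildtype, 0.60 and 0.39 in deficient DMSO and 0.62 and 0.36 in deficient digoxin. All 4 deficient arrays thus lay above all 4 wildtype arrays, with 0.49 ± 0.13 in DMSO (adjusted p = 0.149) and 0.49 ± 0.13 under digoxin (adjusted p = 0.557). The other 3 probe sets of Npc2 gave -0.06, 0.12 and 0.14 for deficiency in DMSO.

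Cyp51, lanosterol demethylase, had 0.39 ± 0.18 under digoxin in wildtype cells by 1422534_at (adjusted p = 0.749) and -0.12 and -0.02 by its other 2 probe sets. Scd2 had 0.54 ± 0.20 for deficiency by 1415824_at (adjusted p = 0.403), whose wildtype DMSO arrays stood at -0.38 and 0.38, and 0.06 and 0.17 by the others. Abca1 had 0.20, 0.38 and 0.02 for deficiency by its 3 probe sets. Idi1, isopentenyl diphosphate isomerase, had a second probe set, 1423804_a_at, on which the wildtype digoxin arrays stood at 0.08 and -0.82.

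**Figure D4:**
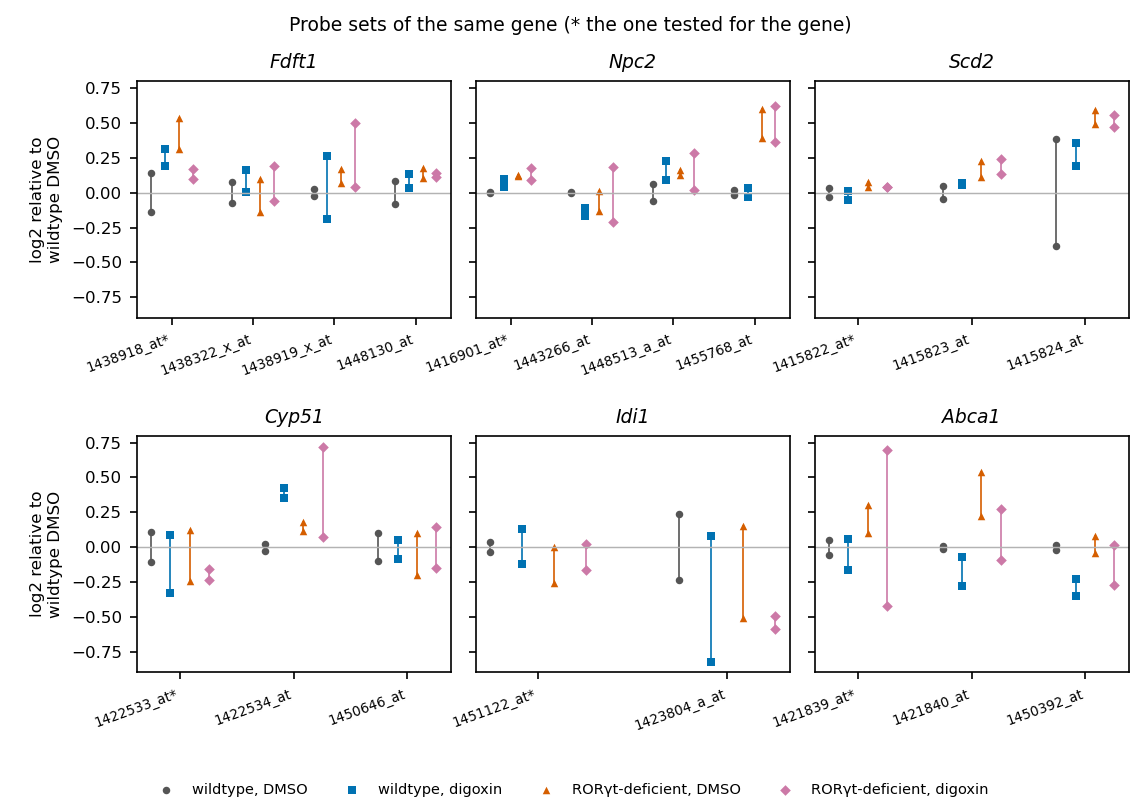
Log2 values, relative to wildtype DMSO, of each probe set of Fdft1, Npc2, Scd2, Cyp51, Idi1 and Abca1; each symbol is 1 array, lines join the 2 arrays of a group, and an asterisk marks the probe set tested for the gene. All 4 deficient arrays of Npc2 lie above all 4 wildtype arrays on 1455768_at (0.36 to 0.62), while on the other 3 probe sets the deficiency estimates in DMSO are -0.06, 0.12 and 0.14.

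Further genes of the same pathways, taken from 2 lists, gave 0 calls in all 5 comparisons. Of 20 measured genes of synthesis and desaturation, 2 had an unadjusted limma p under 0.05 for deficiency in DMSO, where 10.3% of all genes did. They were Fads1, the delta-5 desaturase of polyunsaturated fatty acids, at -0.32 ± 0.11 (adjusted p = 0.304), and Fads2, the delta-6 desaturase, at -0.35 ± 0.13 (adjusted p = 0.372). Fads1 stood at 0.09 and -0.09 in wildtype DMSO, -0.12 and -0.18 in digoxin-treated wildtype, -0.34 and -0.30 in deficient DMSO and -0.44 and -0.51 in deficient digoxin. The 4 deficient arrays lay below the 4 wildtype arrays, and deficiency under digoxin gave -0.32 ± 0.11 for Fads1 and -0.38 ± 0.13 for Fads2 (adjusted p = 0.741 and 0.765). Tmem97, a sterol-responsive membrane protein, and Acacb, the mitochondrial acetyl-CoA carboxylase, stood at -0.24 ± 0.11 and 0.27 ± 0.14 for deficiency in DMSO. For deficiency under digoxin 3 of the 20, Fads1, Fads2 and Tmem97, had an unadjusted limma p under 0.05 (5.51% of all genes). The count was 0 for digoxin in wildtype cells (6.99%), for digoxin in deficient cells (3.51%) and for the difference of effects (3.09%).

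Of 15 measured genes of liver X receptor function, oxysterols and sterol transport, Gramd1b, which moves cholesterol from the plasma membrane to the endoplasmic reticulum, was the 1 (6.67%) with an unadjusted p under 0.05 for digoxin in wildtype cells, against 6.99% of all genes. Its values were 0.02 and -0.02 in wildtype DMSO, -0.39 and -0.43 in digoxin-treated wildtype, 0.04 and 0.16 in deficient DMSO and -0.02 and -0.17 in deficient digoxin. The wildtype digoxin arrays lay below the other 6, with -0.41 ± 0.11 against wildtype DMSO (limma adjusted p = 0.378). Pltp, the phospholipid transfer protein and a known liver X receptor target, had 0.48 ± 0.10 under digoxin in deficient cells (adjusted p = 1), 0.10 under digoxin in wildtype cells and -0.20 for deficiency in DMSO. Scarb1, a lipoprotein receptor, and Osbp, an oxysterol-binding transporter, had -0.23 ± 0.11 and -0.21 ± 0.10 for deficiency in DMSO. In that comparison 0 of the 15 had an unadjusted limma p under 0.05 (10.3% of all genes). The count was 1, Pltp, for digoxin in deficient cells (3.51%), 2 for deficiency under digoxin (5.51%) and 1 for the difference of effects (3.09%).

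Cell cycle genes, whose activity accompanies the need for new lipid in dividing cells, were measured on the same arrays. Of 13 measured, 6 fell in deficiency in DMSO (1.05% of all genes were called). They were Mki67, Bub1, Ccnb2, Aurka, Plk1 and Cdk1, from -0.79 for Cdk1 to -1.18 for Bub1 on the log2 scale (largest limma adjusted p = 0.016). The other 7 were not called and ran from -0.74 ± 0.18 for Mcm5 to 0.16 ± 0.26 for Mcm3, with Top2a at 0.11 and Ccne1 at -0.11. Top2a was the 1 of the 13 whose tested probe set had a lowest array level under 4 on the original log2 scale. For digoxin in wildtype cells 0 were called (0.121% of all genes), and 2 had an unadjusted limma p under 0.05 (6.99%). The other 3 comparisons also called 0: digoxin in deficient cells (0.0055% of all genes), deficiency under digoxin (0.0055%) and the difference of effects (0%). At an unadjusted limma p under 0.05 their counts were 0 (3.51% of all genes), 6 (5.51%) and 0 (3.09%) in that order. For deficiency under digoxin the median over the 13 was -0.43, from -0.85 for Bub1 to 0.35 for Top2a, with 10 estimates below 0 and 3 above. The median difference for deficiency in DMSO was -0.74 over the 13 cell cycle genes, -0.01 over the 7 mevalonate and isoprenoid enzymes and 0.04 over the 11 enzymes from squalene to cholesterol. The part of the cell cycle shift in the values above was not tested.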

How the data were processed

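Per the submitters' processing notes, probe intensities of 8 arrays were summarised with RMA, and the table the authors deposited holds log2 values of 45101 probe sets. In each of them both wildtype DMSO values sum to 0 within 1e-06, so each value is a difference from their mean, a step no label records. The design text names GeneSpring GX for the analysis. Groups came from the array titles.

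Probe sets naming several genes (932) or none (9211) and 64 control probe sets were left out, and 34945 remained. For each of 18193 genes 1 probe set was tested, preferring _at over _a_at, _s_at and _x_at and then the first identifier. A model of 4 group means was fitted to all arrays with limma 3.58.1 in R 4.3.3 (4 residual and 5.8 prior degrees of freedom). Tests were two-sided, and an adjusted p under 0.05 (Benjamini-Hochberg over all genes) was called. The fit was tested on simulated data. Values after ± are limma standard errors.

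The members and gene lists were chosen with earlier results of these data known. Values on every array are given for a fixed set of 11 genes (Hmgcs1, Sqle, Insig1, Srebf1, Srebf2, Fasn, Scd1, Scd2, Abca1, Abcg1 and Ch25h) and for the 2 genes of each role group with the smallest unadjusted p for deficiency in DMSO or digoxin in wildtype cells; of the other pathway lists, up to 4 genes a list were named by the same p. The Npc2, Cyp51, Scd1, Scd2, Srebf2, Insig2, Acly, Acaca, Abca1 and Idi1 probe sets were singled out after their values were seen. The alternatives tried are given in the closing section.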

Additional observations from a re-analysis of the deposited data

Results flagged for a closer look

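The 18S ribosomal RNA control probe sets, which enter no comparison, were above the level of both wildtype DMSO arrays (0.72 and -0.72 on the log2 scale) on 3 arrays: wildtype digoxin array 2 at 1.76, RORγt-deficient DMSO array 2 at 1.58 and RORγt-deficient digoxin array 2 at 1.62. Array 1 of these groups stood at -2.37, -0.25 and -0.43, so the difference within wildtype digoxin was the widest. On wildtype digoxin array 1 the 3 probe sets read from -2.77 to -1.98.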

How the results depend on the processing

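The count of called genes among the 36 was 0 in all 5 comparisons under each of 19 other settings: without each array in turn, with the replicate block, with only the compared groups, after quantile normalization, with array medians subtracted, with array weights, with a robust prior, with the mean of a gene's probe sets, with every probe set on its own, without genes whose lowest level was under 4, and with 2 settings chosen after seeing the data, the 18S covariate and a crossed replicate block. The smallest adjusted p of any of the 36 was 0.128, for deficiency in DMSO with the crossed block. Deviations of same-numbered arrays from their group means correlated from -0.24 to -0.14 between wildtype DMSO and the other groups. Among those other groups they correlated from 0.32 to 0.45. The numbers were therefore not taken to pair the arrays. The crossed block swaps the numbers of the wildtype DMSO arrays, which puts the array of each group with the higher 18S signal on the same side. What these arrays share was not tested. The replicate block gave 0 called genes of the 36, and over all genes 181 in place of 191 for deficiency and 25 in place of 22 for digoxin in wildtype cells, against 414 and 60 with the crossed pairing. Over all genes the counts ranged from 3 (quantile normalization) to 414 for deficiency in DMSO, with 17 to 188 on leaving out an array (17 without wildtype DMSO array 2), and from 4 (quantile normalization) to 74 (18S covariate) for digoxin in wildtype cells. Of 1705 recomputed values of the 19 named genes, 108 moved by over 1 SD of their arrays, 90 of them on leaving out an array, and 118 changed sign, none of them called. Median differences of the 36 genes ranged from -0.06 to 0.08. With 2 arrays a group, the median half-width of the unadjusted 95% intervals was 0.29 on the log2 scale.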
